A study of Caenorhabditis elegans with 16 samples.

Results

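Glia other than the amphid socket cells were examined in a single-cell expression atlas of the nervous system of Caenorhabditis elegans at the first larval stage. They were the cells that the authors' deposited annotation placed in the tissue Glia, without the type AMso, the socket cells of the amphid, and without Glial_progenitor. The rule gave 2042 of the 151415 cells in the count table, from all 16 libraries, with 2196379 UMIs. A UMI is a molecular tag that counts each captured transcript once, whatever its length. The annotation held 3096 cells of tissue Glia in all, of which 454 were AMso and 600 were Glial_progenitor. The comparison cells were 89073 neurons and 11758 cells of tissue Epidermis from the same libraries.

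Most glia of the worm belong to small sense organs, in which a sheath cell wraps the ciliated endings of the sensory neurons and a socket cell joins them to the epidermis and lines the opening in the cuticle. The amphid is the main sense organ of the head, the phasmid its counterpart in the tail, and the cephalic and inner labial organs surround the mouth. Sheath and socket cells are epithelial, joined by apical junctions and, in sockets, exposed to cuticle. The GLR cells differ in origin: they come from mesoderm and lie between the nerve ring and the head muscles. The 9 annotated types were AMsh and PHsh (sheath of the amphid and phasmid), CEPsh (cephalic sheath), Glia_sheath (other sheath cells), ILso and PHso (socket of the inner labial organs and of the phasmid), Glia_socket (other sockets), GLR and Glia_unannotated.

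All animals were hermaphrodites labelled as wild type in genotype, each strain carried a transgene that marks neurons or their progenitors, and no label named a glial reporter. Fluorescent cells were sorted with DAPI to mark dead cells, so the glia in each library were cells that passed a gate set for neurons. The command interneuron library came from strain NC3581, which carries otIs708 (sra-11p::Scarlet and inx-6p18::tagRFP) with rhIs2 (glr-1::GFP), at 12 to 16 h after hatching. The sensory library came from PS9221, syIs764, in which Ptax-4 and Pocr-2 drive GFP, at 14 to 16 h. The 2 pan-neuronal libraries came from OH10689, otIs355, with nuclear tagRFP under a rab-3 promoter, at 11.5 to 14.5 h. The unc-86 library came from kyIs262 animals (unc-86::myr-GFP and odr-1::RFP) and the eat-4 library from OH9625, otIs292 (eat-4::mCherry with rol-6(su1006), a dominant allele of a cuticle collagen gene), both at 12 to 15 h. The 2 flp-7 libraries came from NY2066, ynIs66 (flp-7p::GFP), at 14 to 17 h.

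In 3 experiments suspensions of several strains were combined before the sort, so a cell cannot be traced to its strain. NC3583, carrying stIs10447 (ceh-34p::HIS-24::mCherry with an unc-119(+) rescue) and evIs111 (F25B3.3::GFP with dpy-20(+)), was combined with NC2957, carrying wdIs90 (unc-4c::GFP) and ufIs26 (unc-4::mCherry), at 14 to 17 h, once sorted live and once fixed in methanol after sorting. OH16003 (otIs742, nlp-13::GFP), EG1285 (oxIs12, unc-47::GFP, in lin-15B&lin-15A(n765) animals), ZM5488 (hpIs202, ceh-10::GFP) and uIs152 (mec-3::RFP) were combined at 13.5 to 17 h, the first 3 of them with lin-15(+) in the transgene. CZ631 (juIs14, acr-2::GFP with lin-15(+)), NC3523 (wdIs90 with ceh-22::GFP) and PS3504 (syIs54, ceh-2::GFP and unc-119(+), in unc-119(ed4) animals) were combined at 13 to 17 h. The P-lineage libraries came from UD381, in which hlh-3 promoters drive a venus fusion of a vab-10 domain and nuclear tdTomato beside odr-1::gfp, at 11 to 14 h, 15.5 to 18.5 h and, in 2 libraries whose label names stages L1 and L2, 21 to 24 h. Only the pan-neuronal, flp-7 and 21 to 24 h P-lineage groups had 2 libraries each. Nothing in the labels says whether those came from separate cultures.

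Glia made up a small and uneven share of the sorted cells. Of the annotated cells of a library they were between 0.0798% (exact 95% interval 0.0259% to 0.186%), in replicate 1 of the pan-neuronal sort, and 7.65% (7.12% to 8.22%) in the sensory sort, with a median of 0.594% over the 16 libraries. After the sensory sort, with 701 glial cells, the sort on ceh-10, nlp-13, unc-47 and mec-3 reporters stood highest with 386 cells, a share of 4.81% (4.35% to 5.30%), followed by the unc-86 sort with 217 cells, a share of 2.16% (1.89% to 2.47%). The other 13 libraries held 5 to 187 glial cells each. Intervals here and below cover counting error only, and the order of the shares follows the sort as well as any difference between animals. The 2 libraries of a group held 5 and 10 glial cells in the pan-neuronal sort, 69 and 84 in the flp-7 sort, and 20 and 72 in the P-lineage sort at 21 to 24 h. Of the 2042 glial cells, 75 (3.67%) carried a barcode that also occurs in another library, against 3.66% of all cells.

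**Figure D1:**
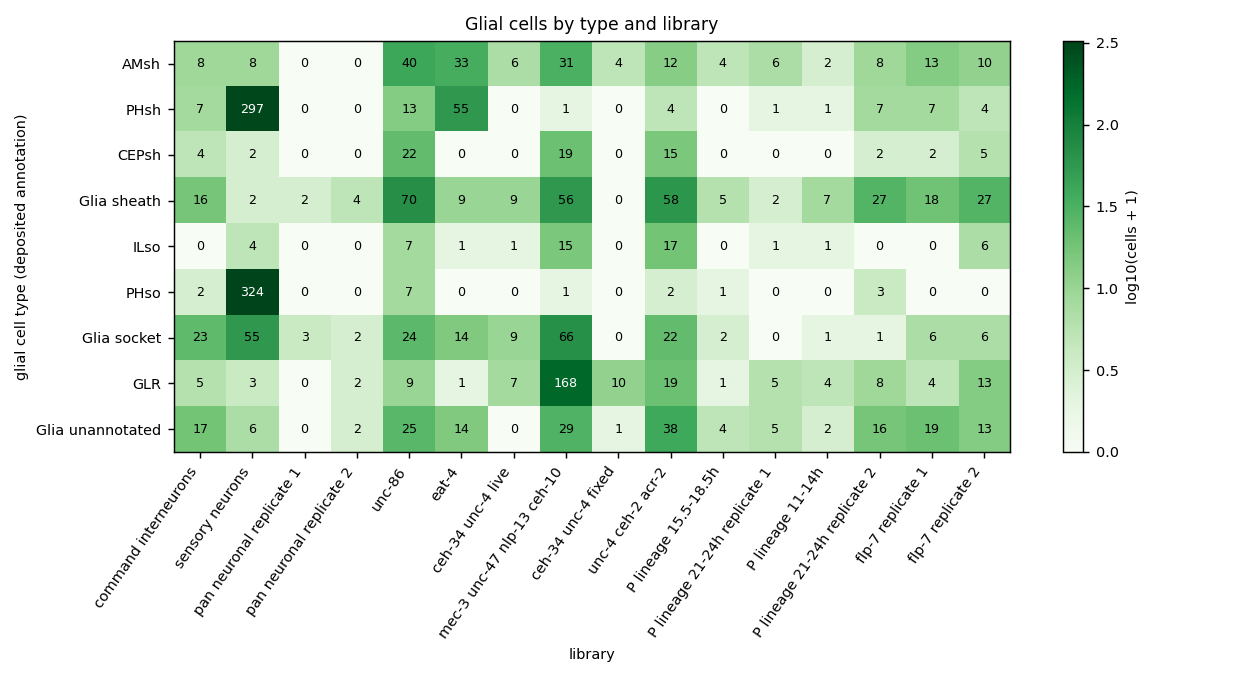
Number of glial cells of each annotated type (rows) in each of the 16 libraries (columns). Each square prints the number of cells and is coloured by log10 of that number plus 1. PHso and PHsh stand out in the sensory sort, with 324 and 297 cells, and GLR in the sort that included ceh-10::GFP, with 168.

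The types were spread unevenly over the libraries, as the map of cells by type and library shows. The phasmid glia came largely from one sort: 324 of 340 PHso cells (95.3%) and 297 of 397 PHsh cells (74.8%) were from the sensory library, so their levels are close to those of a single library. Of the 259 GLR cells, 168 (64.9%) came from the sort that included ceh-10::GFP. The 185 AMsh, 312 Glia_sheath, 234 Glia_socket and 191 Glia_unannotated cells were found in 14 or 15 libraries each, and no library held more than 28.2% of any of these. The rarest types were CEPsh, with 71 cells, and ILso, with 53.

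Depth also differed by type. The median glial cell held 573 UMIs and the median neuron 707. PHsh cells were deepest, with a median of 1642 UMIs, and AMsh cells shallowest, with a median of 162, about 0.203 of the median of all cells of their own library. In AMsh, 38 of 185 cells had at least 500 UMIs and carried 91.0% of the type's UMIs. Genes of the amphid sheath were measured in the shallow AMsh cells, which the authors typed from these same counts. T02B11.3, an established amphid sheath gene, had a UMI in 66.7% of the 147 AMsh cells under 500 UMIs (12946 CPM, the gene's UMIs over all UMIs of those cells on the usual CPM scale), against 0.332% of the equally shallow Epidermis cells (25.2 CPM), whose median depths were 131 and 124 UMIs. In the 38 deeper AMsh cells T02B11.3 stood at 19252 CPM and was found in all of them. Other amphid sheath genes were lower in the shallow cells: F11C7.2 stood at 6239 CPM (in 44.9% of cells) against 16155 CPM in the deeper ones, Y73B6A.3 at 6919 CPM (51.7%) against 13805 CPM, and vap-1 at 2037 CPM (21.8%) against 4591 CPM. The gene fig-1 stood at 764 CPM (8.84%) against 2094 CPM, and kcc-3 at 84.9 CPM (1.36%) against 462 CPM.

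A zero in a library can have more than one source. Between 2603 and 7838 of the 18570 genes had no UMI in any cell of a library, and in several libraries almost no gene was found in 1 to 3 cells. In flp-7 replicate 2, for example, 2 genes were found in 1 to 3 cells, 1018 in 6 to 8 cells, and 5474 in none. Where a gene has no UMI in any cell of a library, a true zero and a gene left out of that library before deposit therefore cannot be told apart. Glial genes touched by this are named below.

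The marker genes given for glia, mir-228, ptr-10 and fig-1, were checked first. The microRNA gene mir-228 was not analysed here. Over all glia ptr-10, a patched-related transmembrane protein gene, stood at 138 CPM, against 1.0 CPM in neurons and 38.9 CPM in Epidermis. It was highest in ILso (394 CPM) and CEPsh (353 CPM) and between 102 and 266 CPM in Glia_unannotated, PHsh, Glia_sheath, PHso and Glia_socket. AMsh stood below the Epidermis level for ptr-10, at 19.1 CPM. The GLR cells had no ptr-10 UMI among 134821, which allows up to 22.3 CPM. The secreted protein gene fig-1, required in amphid sheath glia for the sensory neurons' function, stood at 1974 CPM in AMsh and 716 CPM in PHsh, at 37.5 CPM or less in the others, and had no UMI in CEPsh, which allows up to 42.3 CPM. Thus ptr-10 was above its Epidermis level in 7 types and fig-1 far above it in AMsh and PHsh, whereas GLR had neither marker above the Epidermis level.

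Signs of other cells were measured in the same way. Summed over 15 neuron markers, glia of the 11 libraries with at least 20 glial cells stood at 390, 935 and 2501 CPM (lowest, median and highest). Epidermis, over 15 libraries, ran from 305 to 2442 CPM, overlapping glia, and every neuronal value of the 16 libraries was higher, 8070 to 28867 CPM. Coelomocyte and excretory markers, 8 genes, stood at 39.0, 225 and 612 CPM in glia, against 0, 107 and 330 CPM in Epidermis and a median of 12.8 CPM in neurons. By type they were highest in PHso, at 1070 CPM. That sum includes lin-48, given below as highest in PHso among the glial types, so it does not measure other cells alone. The proton pump gene vha-5, also one of the 8, was higher in glia than in Epidermis by 1.35 on the log2 scale. Intestinal markers stood at 0, 29.1 and 81.8 CPM and pharyngeal and gland markers at 0, 2.99 and 59.5 CPM. Muscle markers, 12 genes without unc-54, stood at 1152, 2194 and 4645 CPM, overlapping the 1257 to 6366 CPM of Epidermis. The left-out unc-54 stood at 37.5, 587 and 8513 CPM in glia and ran from 25.3 to 21624 CPM in Epidermis. The part of such RNA in the levels below was not tested. The ribosomal RNA gene rrn-3.1, chosen after its values were seen, took 1.32% of UMIs in PHsh and 2.22% in AMsh, but 11.6% in CEPsh, 12.5% in Glia_sheath and 12.9% in Glia_unannotated, against 2.94% in neurons. CPM of other genes in those 3 types are lower by that share.

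Levels by type are descriptions without a test, because the types were assigned by the authors from these same cells. For each type the 5 genes with the largest ratio to the next glial type are named, beside known genes of glia. The 10 most abundant genes of each type were chosen after their values were seen.

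The amphid sheath, AMsh, held a large part of its UMIs in a few genes, most of them known by sequence names only. F53F4.13 alone made 111907 CPM, or 11.2% of all UMIs, with 57270, 102555 and 135316 CPM (lowest, median and highest) in the 6 libraries with at least 10 AMsh cells. F20A1.1 followed at 59268 CPM, and tag-209, C33G8.4, ZK822.4, T02B11.3, Y69A2AR.22, F11C7.2 and far-8, a fatty-acid and retinol binding protein gene, stood between 14289 and 24691 CPM. Several were shared with the phasmid sheath, which had F53F4.13 at 43080 CPM, F20A1.1 at 30885 CPM and T02B11.3 at 3726 CPM. F16F9.3, another amphid sheath gene, stood at 1569 CPM in AMsh and 527 CPM in PHsh.

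The amphid sheath also had genes that were low or without a UMI in PHsh. F11C7.2 stood at 15263 CPM (95% interval 14793 to 15744) in AMsh and 1.2 CPM in PHsh, and ranged from 7836 to 20486 CPM over the 6 libraries with at least 10 AMsh cells. Y73B6A.3 stood at 13186 CPM in AMsh and at 16.4 CPM in the next type, Glia_sheath. The venom-allergen-like gene vap-1, a known amphid sheath gene, stood at 4361 CPM in AMsh, with 1121, 3390 and 5945 CPM over those libraries, and at 8.2 CPM in Glia_sheath, the next type. K09C6.9 (1569 CPM) and B0478.3 (1042 CPM) also ranked among the leading AMsh genes. Each was at 0 in 3 of the 6 AMsh libraries. K09C6.9 had no UMI in any cell of 5 of the 11 libraries, B0478.3 in 6 and vap-1 in 3, among them the sensory sort. Since 297 of the 397 PHsh cells came from that sort, the lack of vap-1 in PHsh cannot be read as a low level.

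K02E11.7 was abundant in PHsh, at 28266 CPM, against 34.4 CPM in AMsh and 1116 CPM in PHso, the next glial type. Its values over 3 PHsh libraries were 6386, 12161 and 33211 CPM (lowest, median and highest). It had no UMI in any cell of 6 of the 16 libraries, and was chosen after its values were seen. The PHsh genes with the largest ratio to the next glial type were weaker than those of AMsh. T09F5.1 stood at 521 CPM (474 to 572) against 33.2 CPM in Epidermis and 4.2 CPM in Glia_socket, the next glial type. C54F6.12 (88.6 CPM) and Y49F6B.13 (93.3 CPM) were near 0 in every other type. The last had UMIs in 3 of the 16 libraries only. The remaining 2, oac-51 (103.8 CPM) and dpy-10 (95.6 CPM), were also present in Epidermis, at 32.9 and 74.2 CPM, and dpy-10 encodes a cuticle collagen. All 319 UMIs that PHsh cells held of dpy-7, dpy-2 and dpy-10, 3 furrow collagen genes of the epidermis, came from 26 of the 397 cells. Those 26 cells had a median of 6520 UMIs against 1623 in the other 371, and F53F4.13 stood at 15911 CPM in them against 49206 CPM. Whether they are single cells was not tested.

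CEPsh, the cephalic sheath, whose processes ensheath the nerve ring as astrocytes do in vertebrates, had 3 transporter and channel genes, glt-1, aqp-2 and aqp-7, among its 10 most abundant genes. Of the 19 genes in the list of glial transporters and channels, which does not hold aqp-7, 4 reached 50 CPM in CEPsh. The glutamate transporter gene glt-1 stood at 18276 CPM (17295 to 19299), with 16117, 16608 and 24289 CPM in the 3 libraries that held at least 10 CEPsh cells. Glia_sheath, the next type, had 1717 CPM of glt-1, GLR 1016 CPM, and neurons 34.5 CPM. The 3 CEPsh libraries did not reach down to any glt-1 value of Glia_sheath, which ran from 493 to 3707 CPM over 7 libraries. The aquaporin gene aqp-2 stood at 9195 CPM and aqp-7 at 7418 CPM, with 6432, 7405 and 8887 CPM of aqp-7 in those libraries against 460 CPM in Glia_sheath. The Na,K-ATPase gene eat-6 stood at 3342 CPM, above 623 CPM in neurons. Other leading genes were Y71H10B.1 (3949 CPM), C06E7.2 (1114 CPM), T05A1.5 (719 CPM) and the immunoglobulin-domain gene zig-8 (719 CPM), which neurons also carried, at 303 CPM.

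Known regulators of glia were measured in CEPsh too. The bHLH gene hlh-17, used as a cephalic sheath marker, stood at 409 CPM (274 to 587) in CEPsh, at 107 CPM in Glia_sheath and at 0 in the remaining 7 types. Neurons as a whole had 339 CPM of hlh-17, but 1.56, 9.36 and 1564 CPM (lowest, median and highest) over the libraries with at least 20 glial cells. The gene thus set CEPsh apart among glia, while the highest neuronal library stood above the CEPsh level and the median one below it. The Pax6 gene vab-3, needed for head glia, stood at 423 CPM in CEPsh, although 2 of its 3 libraries were at 59.2 and 111 CPM. The Prox1 homologue pros-1, known from amphid sheath glia, stood at 1326 CPM in CEPsh and 1331 CPM in Glia_sheath, against 324 CPM in PHsh and 157 CPM in AMsh. The potassium-chloride cotransporter gene kcc-3 stood at 1199 CPM in CEPsh, 994 CPM in Glia_sheath, 428 CPM in AMsh and 259 CPM in PHsh.

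Glia_sheath, which the annotation does not resolve further, had glt-1, pros-1, kcc-3 and nlp-16 as CEPsh did, and further leading genes. Y38C1AA.9 stood at 3261 CPM (2948 to 3598), with 1836, 3518 and 12889 CPM over 7 libraries, against 451 CPM in CEPsh. The transthyretin-related genes ttr-15 and ttr-43 stood at 1979 and 4862 CPM. T05A7.7 (1133 CPM), BE10.4 (427 CPM) and K09H11.9 (329 CPM) completed the leading genes. BE10.4 was at 0 in 4 of the 7 libraries and K09H11.9 in 2. The betaine transporter gene snf-3 stood at 1552 CPM and the guidance ligand gene slt-1 at 583 CPM (455 to 736), with 206, 873 and 1460 CPM over the libraries, against 14.1 CPM in neurons. The peptide precursor gene nlp-16 reached 12796 CPM in Glia_sheath and 12932 CPM in CEPsh, against 8.6 CPM in neurons and 1.1 CPM in Epidermis. It was chosen after its values were seen.

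**Figure D2:**
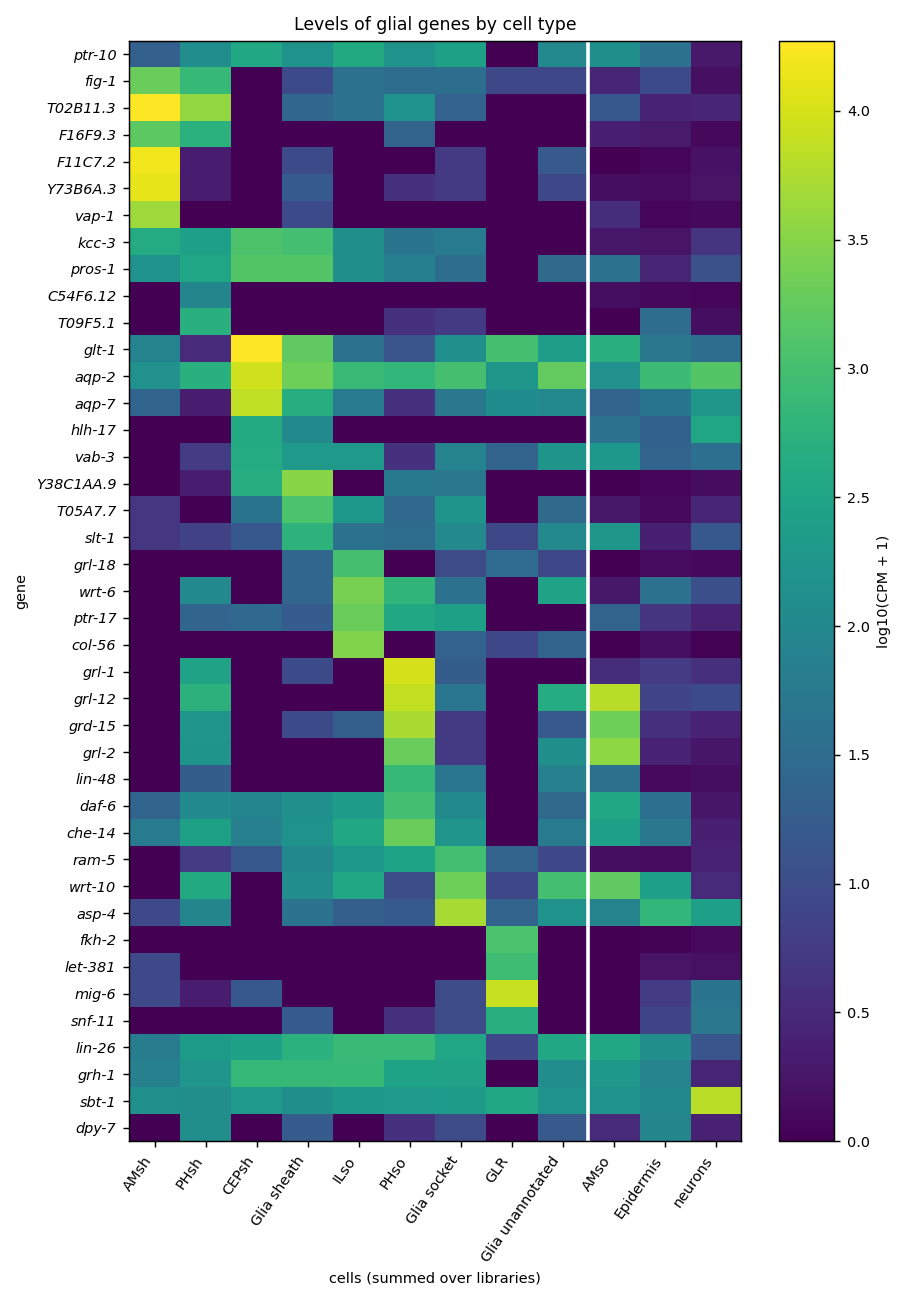
Level of glial genes (rows) in each glial type, and to the right of the white line in AMso, Epidermis and neurons. Colour gives log10 of CPM plus 1 over UMIs summed across libraries. Blocks of high values mark T02B11.3, F11C7.2 and vap-1 in AMsh, glt-1, aqp-2 and aqp-7 in CEPsh, grl-1, grl-12 and grd-15 in PHso, and fkh-2, let-381 and mig-6 in GLR.

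Among the sockets, PHso resembled the amphid socket in a block of hedgehog-related genes and differed from it in one of them. Hedgehog-related proteins of the worm are secreted into cuticle and other apical matrices. The gene grl-12 stood at 7586 CPM in PHso and 6511 CPM in AMso, grd-15 at 5331 and 2115 CPM, and grl-2, a known marker of amphid and phasmid sockets, at 2010 and 3488 CPM. In contrast grl-1 stood at 10005 CPM (9663 to 10356) in PHso and 2.7 CPM in AMso, and at 292 CPM in PHsh, the next glial type. F35B3.4 stood at 2921 CPM in PHso and 1855 CPM in AMso. The other leading PHso genes were nhr-162 (279 CPM), K02B12.6 (164 CPM) and C46H11.3 (130 CPM), which had no UMI in any cell of 14 of the 16 libraries. Since 324 of 340 PHso cells came from 1 library, no spread over libraries is given.

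PHso also carried the genes known from duct and lumen formation in glia. The dispatched-related gene che-14 stood at 1979 CPM (1828 to 2138), against 357 CPM in ILso and 50.4 CPM in Epidermis. The patched-related gene daf-6, which limits the size of the amphid channel, stood at 977 CPM. The zinc-finger gene lin-48 (720 CPM), the homeobox gene ttx-1 (794 CPM), the zinc-finger gene ztf-16 (608 CPM) and the cadherin gene hmr-1 (1935 CPM) were each highest in PHso among the glial types. The homeobox gene ttx-1 stood at 231 CPM in PHsh and 179 CPM in AMsh.

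ILso rested on 53 cells, and single cells weighed on it. D2024.4 had 77.5% of its UMIs in 1 cell, F17C11.22 had 81.9% and F35A5.5 had 100%. D2024.4 was found in 4 cells, at 3012 and 27663 CPM in the 2 libraries with at least 10 ILso cells, and had no UMI in the other glial types. The part of single cells in other ILso values was not tested. Found in more cells were the collagen gene col-56 (2928 CPM, found in 21 cells) and T21B4.3 (1126 CPM, found in 10 cells, with 36.7% in 1). The hedgehog-related gene grl-18, a marker of inner labial sockets, stood at 1014 CPM (761 to 1323), with 471 and 1506 CPM in the 2 libraries of at least 10 cells, against 29.7 CPM in GLR, the next type. The hedgehog-related gene wrt-6 stood at 2440 CPM and the patched-related gene ptr-17 at 1990 CPM, against 611 and 350 CPM in PHso.

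Glia_socket, the sockets not resolved by organ, was led by the aspartyl protease gene asp-4, at 5127 CPM (4843 to 5424), with 931, 2974 and 9862 CPM over 6 libraries. Epidermis had 683 CPM of asp-4 and Glia_unannotated 153 CPM. The hedgehog-related gene wrt-10 stood at 2090 CPM, with 864, 1999 and 3181 CPM over the same libraries, and ram-5, a matrix gene needed for the shape of male tail sense organs, at 938 CPM (818 to 1069), with 72.0, 511 and 1895 CPM. F53F8.7 (393 CPM) and col-178 (207 CPM) were found in 31 and 27 cells. The other 2 leading genes were carried by few cells: nlp-17 had 99.5% of its UMIs in 1 cell, and col-131 had 46.6%.

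The GLR cells carried several genes that were rare or absent in the other glial types. The forkhead gene fkh-2 stood at 1165 CPM (989 to 1362) and had no UMI in the other 8 types, although 1 of the 4 GLR libraries was at 0. The forkhead gene let-381, known as a regulator of GLR fate, stood at 890 CPM (738 to 1064) against 7.6 CPM in AMsh and 0 elsewhere in glia, again with 1 of 4 libraries at 0. The papilin gene mig-6, a basement membrane component, stood at 8100 CPM, with 7725, 9997 and 13825 CPM over 4 libraries, against 14.1 CPM in CEPsh, the next glial type. The SPARC gene ost-1 stood at 18417 CPM against 24.2 CPM in neurons. The GABA transporter gene snf-11 stood at 497 CPM (385 to 631), with 326, 920 and 1495 CPM, against 47.6 CPM in neurons and at most 16.4 CPM in other glia. C05G5.5 (668 CPM), gpx-8 (534 CPM) and Y97E10AR.2 (282 CPM) were found in 65, 52 and 27 cells.

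Genes of mesodermal and epithelial fate gave GLR levels unlike those of other glia. The myogenic bHLH gene hlh-1 stood at 252 CPM (175 to 352) in GLR, against 45.2 CPM in the muscle and mesoderm cells of the same libraries and 21.7 CPM or less in other glia. Conversely lin-26, the zinc-finger gene that maintains epithelial and glial fate, stood at 7.4 CPM in GLR and between 61.1 CPM (AMsh) and 751 CPM (ILso) in the other 8 types. The epithelial regulator genes grh-1 and nhr-23 had no UMI in GLR and stood between 72.6 and 713 CPM and between 26.7 and 431 CPM in the others. Some other epithelial genes had UMIs in GLR. The apical junction and polarity genes summed to 1239 CPM there, with 6 of 15 at 50 CPM or more and a median of 7.42 CPM. AMsh, the lowest glial type for this list, stood at 699 CPM with 4, and neurons at 688 CPM with 4. The apical matrix genes summed to 460 CPM in GLR, where 1 of 17 reached 50 CPM, against 61.1 CPM in AMsh, again the lowest glial type. In GLR 12 of 15 neuron markers and 9 of 13 muscle markers reached 50 CPM. The part of RNA from neurons and muscle in those levels was not tested.

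Glia_unannotated was not resolved by its genes either. Its leading genes were F53F4.2 (591 CPM), the sodium channel subunit gene del-6 (482 CPM), clec-146 (321 CPM, with 54.5% in 1 cell), far-4 (182 CPM, with 96% in 1 cell) and the zinc-finger gene fezf-1 (175 CPM), which AMso carried at 508 CPM. The hedgehog-related gene wrt-10 (978 CPM), snf-3 (949 CPM), nhr-23 (431 CPM), lin-26 (358 CPM) and the homeobox gene ceh-37 (358 CPM) stood at levels that also occur in named glia. The peptide precursor gene nlp-77, chosen after its values were seen, stood at 31839 CPM in Glia_unannotated. It was also abundant in ILso (66132 CPM), PHso (52385 CPM), AMso (37347 CPM), Glia_sheath (15432 CPM) and CEPsh (10760 CPM), against 617 CPM in Epidermis and 53.6 CPM in neurons, and GLR had none.

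The hedgehog-related and collagen genes stood higher in the 3 socket types than in AMsh, CEPsh and Glia_sheath. Summed over 54 hedgehog-related genes, the level was 28129 CPM in PHso, 8184 CPM in ILso and 5807 CPM in Glia_socket. It was 509 CPM in Glia_sheath, 199 CPM in AMsh, 98.7 CPM in CEPsh and 96.4 CPM in GLR, against 3947 CPM in Epidermis and 128 CPM in neurons. Cuticle collagens of the col group, 134 genes, summed to 56484 CPM in ILso, 44169 CPM in PHso and 22653 CPM in Glia_socket, and to 1749 CPM or less in Glia_sheath, CEPsh, GLR and AMsh. AMso stood with the other sockets, at 16618 CPM of the hedgehog-related and 46418 CPM of the collagen genes. The 17 apical matrix genes gave another order, with sums of 6119 CPM in Glia_socket, 4575 CPM in Glia_sheath, 4456 CPM in CEPsh, 3980 CPM in ILso, 1566 CPM in PHso and 61.1 CPM in AMsh.

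PHsh stood above the other sheaths in the hedgehog-related and collagen genes. It summed to 5870 CPM of hedgehog-related genes, with 21 of 54 at 50 CPM or more, led by grl-16 (1247 CPM), and to 13764 CPM of collagens, led by col-107 (2991 CPM). The Epidermis sums were 3947 and 13550 CPM. Without the 26 PHsh cells that held dpy-7, dpy-2 or dpy-10, an alternative chosen after seeing the data, the sums were 5429 CPM and 15811 CPM. The apical matrix genes, which include those 3, then fell from 2741 to 526 CPM in PHsh. The sockets used different members: col-33 (16444 CPM) and col-89 (12934 CPM) led in ILso, col-14 (12027 CPM) in PHso and col-34 (4747 CPM) in Glia_socket. The patched-related genes, 26 in the table, were more evenly spread, from 229 CPM in AMsh to 4449 CPM in ILso, against 594 CPM in Epidermis.

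**Figure D3:**
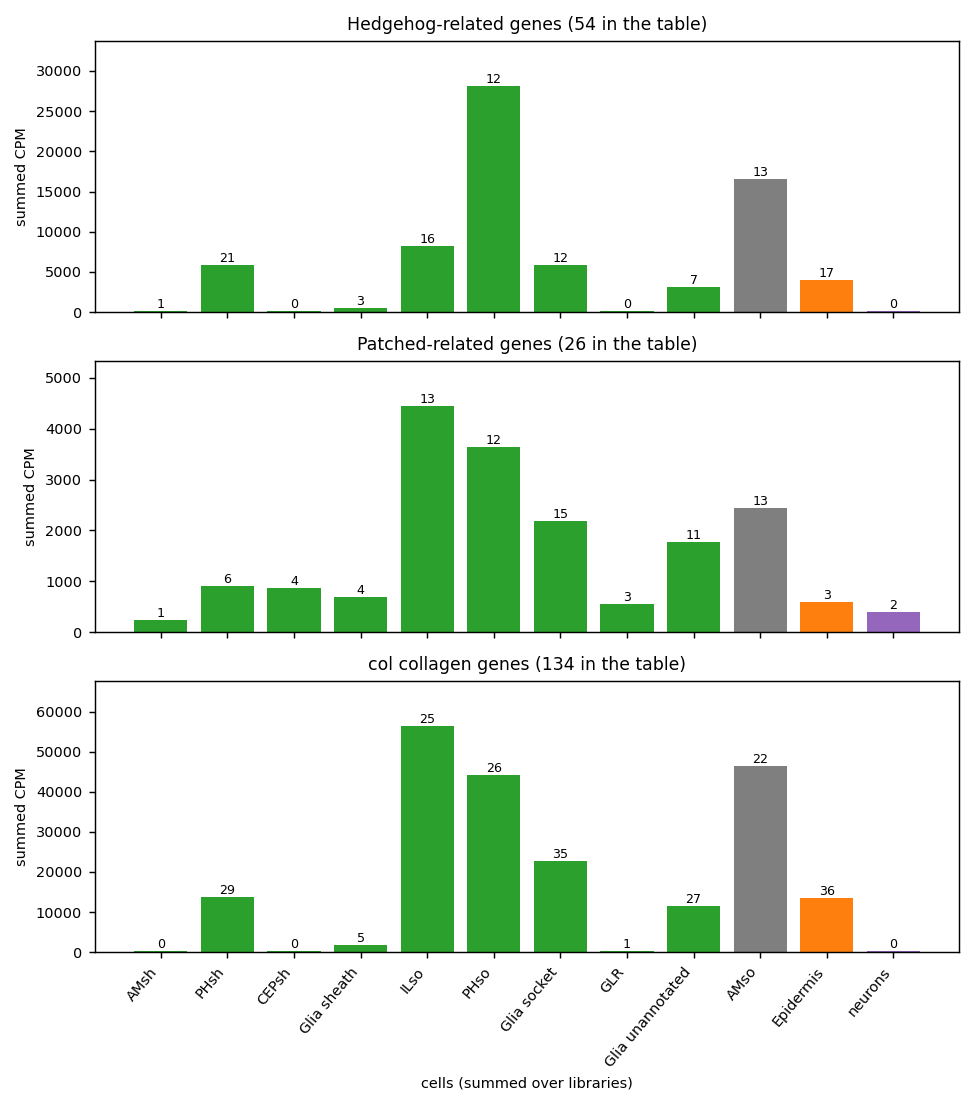
Summed CPM of the hedgehog-related, patched-related and col collagen genes (3 panels) in each glial type (green), AMso (grey), Epidermis (orange) and neurons (purple). The number above a bar counts the members at 50 CPM or more. In the hedgehog-related and collagen panels PHso, ILso, Glia_socket and AMso stand above AMsh, CEPsh, Glia_sheath and GLR.

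Glia were next compared with neurons of the same libraries, on UMI counts summed over the glia and over the neurons of each of the 11 libraries with at least 20 glial cells. Of 5862 genes tested with edgeR's quasi-likelihood test, with library as a block, 773 (13.2%) were higher in glia and 1570 (26.8%) lower, at a Benjamini-Hochberg adjusted p under 0.05 and a log2 fold change of 1 or more in either direction. The median log2 fold change of all tested genes was -0.30. Since cells were called glia or neurons by the authors from the same counts, these calls describe the size of each difference and its spread over libraries, and are not independent evidence that the cells are glia. In sums of this kind fewer cells of a type and less RNA per cell cannot be told apart. Of the called genes, 32 of the 773 and 19 of the 1570 had no UMI in any cell of at least 1 of the 11 libraries.

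The genes with the smallest p were largely those of the amphid and phasmid sheath. F53F4.13 stood at 2767, 25428 and 75597 CPM (lowest, median and highest) in glia and 0.470, 2.66 and 152 CPM in neurons, a log2 fold change of 12.08 ± 0.62 (SE) with an edgeR adjusted p of 5.0e-13. Every glial value lay above every neuronal one. The gene ttr-43, highest in Glia_sheath, stood at 179, 1110 and 3551 CPM in glia against 0.117, 1.21 and 4.37 CPM in neurons, a log2 fold change of 9.40 ± 0.44 with an edgeR adjusted p of 2.6e-13. For fig-1 the glial values were 46.8, 357 and 1043 CPM, the neuronal 0, 0.334 and 1.94 CPM, and the log2 fold change 9.32 ± 0.51 (edgeR adjusted p 1.1e-12). The others were C33G8.4, ZK856.7, K02E11.5, T19H12.3, F20A1.1, far-8 and R11D1.13, with log2 fold changes of 8.23 to 11.54. They were higher in glia in all 11 libraries, except R11D1.13, which was higher in 10 and had no UMI in any cell of the remaining one. Of these 10 genes, 7 were highest in AMsh and 2, K02E11.5 and R11D1.13, in PHsh.

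The genes lowest in glia were neuronal. The peptide gene nlp-42 stood at 0, 0 and 58.3 CPM in glia and 25.6, 323 and 19888 CPM in neurons, with 8 of 11 libraries at 0 in glia, a fitted log2 fold change of -9.95 ± 0.61 and an edgeR adjusted p of 4.7e-12. The peptide gene flp-22 (fitted log2 fold change -7.04), R102.2 (-6.71), the tetraspanin gene tsp-7 (-6.10) and F27B10.1 were lower in all 11 libraries. Because several libraries were at 0 in glia, these fitted values depend on the prior count. R102.2 had UMIs in glia too, at 701 CPM in PHso and 463 CPM in PHsh, against 5403 CPM over all neurons. Both types came largely from the sensory sort, and neurons reached 37294 CPM of R102.2 in their highest library. The part of RNA from neurons in the glial values was not tested. All 15 neuron markers tested were lower in glia, against 26.8% of all genes. Their log2 fold changes were -5.65 (the carboxypeptidase gene egl-21) to -1.77 (the synaptobrevin gene snb-1). The cells were typed from these same counts, and such genes could pass the filter on low counts through their neuronal counts alone. The number of lower markers is therefore no support for the list. The muscle myosin gene unc-54, whose 3′ end is a common part of worm reporter transgenes, was also lower in glia (-4.44), with medians of 587 CPM in glia and 29388.5 CPM in neurons. The part of transgene RNA in that count was not tested.

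**Figure D4:**
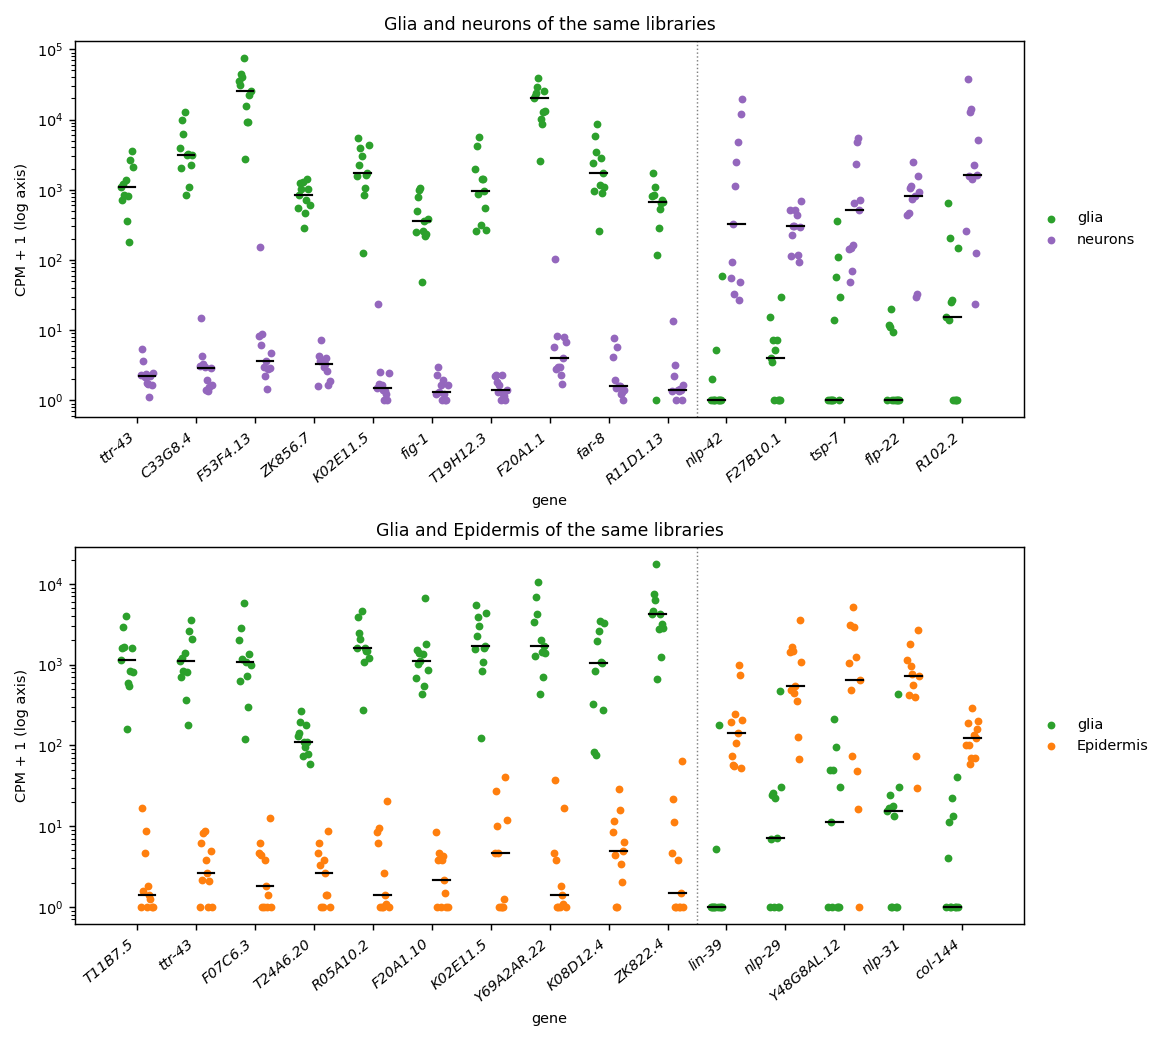
CPM plus 1 on a log axis for the genes with the smallest p, one point per library and side, with the median as a bar, for glia and neurons (top) and glia and Epidermis (bottom). Genes left of the dotted line were higher in glia and those right of it lower. For F53F4.13 the 11 glial points lie between 2767 and 75597 CPM and the neuronal ones at 152 CPM or less.

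Most apical junction genes tested were higher in glia. Among apical junction and polarity genes 10 of 14 tested were higher in glia and 0 lower, against 13.2% and 26.8% of all genes, and the list's median log2 fold change was 1.97. The spectrin gene sma-1 stood at 39.0, 181 and 336 CPM in glia and 0, 4.30 and 21.8 CPM in neurons (log2 fold change 4.90), higher in all 11 libraries. The junction genes ajm-1 (2.85) and dlg-1 (3.08) and the actin-capping gene eps-8 (3.18) were also higher. The adherens junction genes hmr-1 (0.29), hmp-1 (0.95), hmp-2 (0.08) and jac-1 (-0.90) did not pass. Junction genes low in neurons, such as sma-1 and eps-8, could pass the filter on low counts through their glial counts alone. The number of higher junction genes is therefore no support for that list. Of the 17 apical matrix genes 4 passed the filter on low counts, with values of lpr-3 (log2 fold change 7.96), noah-2 (6.46), lpr-1 (5.76) and noah-1 (5.26). Of the 134 collagens 14 passed the filter, with log2 fold changes of 3.06 (col-48) to 8.32 (col-34). The neuronal medians of these genes were 0.833 to 9.32 CPM and the glial ones 31.3 to 552 CPM. They could pass through their glial counts alone, so their number is no support for a difference of either list.

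Regulators of epidermal and glial fate differed among themselves. Of 10 epidermal transcription factor genes 4 passed the filter, and the same limit holds for them: nhr-23 (log2 fold change 7.04), grh-1 (6.88), bed-3 (4.64) and lin-26 (4.62). The gene lin-26 stood at 80.8, 204 and 389 CPM in glia against 1.80, 8.42 and 25.6 CPM in neurons, with no overlap. Of 9 glial transcription factor genes tested 5 (55.6%) were higher and 2 (22.2%) lower, against 13.2% and 26.8% of all genes. The higher ones were lin-26, ceh-37 (4.63), pros-1 (4.02), ttx-1 (3.84) and ztf-16 (3.20), and the lower ones hlh-32 (-5.86) and egl-13 (-2.09). Those low in neurons, such as ceh-37 and ttx-1, could also pass the filter through their glial counts alone. The share of higher genes is therefore no support for this list. The genes vab-3 (1.15, edgeR adjusted p 0.121) and hlh-17 (-0.88, edgeR adjusted p 0.509) did not pass. The neuronal values of hlh-17 ran from 1.56 to 1564 CPM across the sorts.

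Transport and guidance genes included members higher and members lower in glia. Of 8 transporter and channel genes tested 4 (50%) were higher and 1 (12.5%) lower, against 13.2% and 26.8% of all genes. The higher ones were kcc-3 (log2 fold change 6.52), glt-1 (4.52), snf-3 (3.65) and the chloride channel gene clh-1 (1.74), and the lower one was the cotransporter gene nkcc-1 (-2.60). The values of aqp-2 (0.71), eat-6 (-0.76) and snf-11 (-1.02) did not pass. Of 7 engulfment genes 5 (71.4%) were higher, against 13.2% of all genes. Genes low in neurons, such as kcc-3 and ced-6, could pass the filter through their glial counts alone, so these numbers are no support for either list. The higher engulfment genes were led by the adaptor gene ced-6 (2.92) and the receptor gene ced-1 (1.61), whose glial values were 0, 46.8 and 146 CPM against 5.73, 16.4 and 40.7 CPM. The others, ced-5, ced-7 and ced-10, stood at 1.01 to 1.13 and did not pass with DESeq2's size factors. Of 12 genes of nerve ring assembly 1 (8.33%) was higher and 5 (41.7%) lower, against 13.2% and 26.8% of all genes. The ligand gene slt-1 was higher (2.95), and the cadherin genes fmi-1 (-4.41) and cdh-4 (-2.58), the phosphatase gene ptp-3 (-3.34), the netrin gene unc-6 (-2.87) and its receptor gene unc-40 (-1.25) were lower.

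Epidermis was the closer comparison. Over the same 11 libraries, 1920 genes were tested, of which 206 (10.7%) were higher in glia and 299 (15.6%) lower, with a median log2 fold change of -0.13. Both comparisons use the same glial sums, so they are not independent of each other. Of the calls 40.8% were higher in glia, and this share ran from 38.2%, without the library of strains CZ631, NC3523 and PS3504, to 54.8%, without the eat-4 library (276 higher and 228 lower). It was 49.0% without the first P-lineage library at 21 to 24 h (278 and 289) and 48.4% without the unc-86 library (208 and 222). Leaving out the P-lineage cell types that the authors placed in Epidermis gave 260 higher and 279 lower of 1472 tested, a share of 48.2%. Neuron markers did not differ past the threshold in any of the 5 tested, with log2 fold changes between -0.70 (sbt-1) and 0.91 (rab-3).

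The genes higher in glia than in Epidermis were again sheath genes. T11B7.5 stood at 157, 1124 and 4049 CPM in glia and 0, 0.394 and 15.7 CPM in Epidermis, a log2 fold change of 9.79 ± 0.55 with an edgeR adjusted p of 3.3e-09, and no library overlapped. The gene ttr-43 reached at most 7.68 CPM in Epidermis (log2 fold change 9.14 ± 0.53, edgeR adjusted p 3.3e-09). F07C6.3, R05A10.2, F20A1.10, K02E11.5, Y69A2AR.22, K08D12.4, ZK822.4 and T24A6.20 had log2 fold changes between 6.13 and 10.03 and were higher in all 11 libraries. By type, K08D12.4 was highest in CEPsh (8348 CPM) and F20A1.10 in Glia_sheath (5117 CPM), whereas most of the others were highest in AMsh. Of the given markers fig-1 was higher by 4.06 on the log2 scale and ptr-10 by 1.31 ± 0.29 (edgeR adjusted p 2.1e-03), with glial values of 0, 135 and 268 CPM against 20.3, 41.4 and 114 CPM and an overlap between the groups.

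Of 19 transporter genes 4 passed the filter in the comparison with Epidermis, and all 4 were higher in glia. Those low in Epidermis could pass through their glial counts alone, so the number is no support for the list. The gene glt-1 had a log2 fold change of 3.32, with 0, 1315 and 2792 CPM in glia and 15.7, 53.9 and 125 CPM in Epidermis. It was higher in 9 of 11 libraries. The genes snf-3 (2.59), aqp-2 (1.43) and eat-6 (1.23) were also higher. Of 9 junction genes tested 2 (22.2%) were higher and 1 (11.1%) lower, against 10.7% and 15.6% of all genes. The higher ones were hmr-1 (1.29) and che-14 (1.41), and the lower one was the ezrin gene erm-1 (-1.05). The median of the junction list was -0.04. The adhesion gene sax-7 (1.23) was the one nerve ring gene tested, and it was higher.

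Cuticle genes were found on both sides. Of the 134 collagens 27 passed the filter, which a gene high on 1 side only can pass, and 21 of these were lower in glia, such as col-17 (log2 fold change -5.79) and col-3 (-3.47), which stood at 14.6, 241 and 776 CPM in glia and 714, 1647 and 3105 CPM in Epidermis. Another 5 were higher: col-33 (6.48), col-61 (6.44), col-89 (5.75), col-14 (2.44) and col-34 (1.98). By type col-33 and col-89 were highest in ILso, col-14 and col-61 (3991 CPM) in PHso. For col-61 the glial values were 0, 412 and 3527 CPM and the Epidermis values 0, 3.19 and 105 CPM. In flp-7 replicate 1, col-14 and col-33 had no UMI in any cell. The same holds for col-89 in replicate 1 of the P-lineage libraries at 21 to 24 h.

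Hedgehog-related and matrix genes were next. Of 11 hedgehog-related genes tested 8 (72.7%) were lower in glia, against 15.6% of all genes, and none was higher. Among the lower ones were grl-15 (-5.16), grd-10 (-4.80) and wrt-2 (-4.65), whereas wrt-6 (-0.02), qua-1 (-0.76) and wrt-10 (-0.77) did not pass. A gene high in Epidermis only can pass the filter, as wrt-2 could with no UMI in the glia of 7 libraries. The number of lower genes is therefore no support for the list. The socket genes grl-1, grl-2 and grl-12 did not pass the filter on low counts over the 11 libraries. Of 13 apical matrix genes, for which the same limit of the filter holds, 6 (46.2%) were lower. They included dpy-7 (-3.49), dpy-2 (-3.44), dpy-10 (-3.39) and the protease inhibitor gene mlt-11 (-2.10), while lpr-1 (1.11) and let-4 (1.04) were higher. Of 6 patched-related genes 2 (33.3%), ptr-10 and ptc-1 (1.25), were higher, against 10.7% of all genes. Of 6 epidermal transcription factor genes 2 (33.3%), grh-1 (1.44) and nhr-23 (1.15), were higher in glia, against 10.7% of all genes. The gene lin-26 (0.72, edgeR adjusted p 0.0239) fell short of the fold threshold. Numbers this small are no support for the patched-related or the epidermal list.

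Among genes lower in glia than in Epidermis, the Hox gene lin-39 had the smallest p. It had no UMI in the glia of 9 of 11 libraries and stood at 50.8, 142 and 983 CPM in Epidermis (fitted log2 fold change -6.66 ± 0.50, edgeR adjusted p 4.9e-08). The antimicrobial peptide genes nlp-29 (-5.60) and nlp-31 (-5.35), Y48G8AL.12 (-5.32) and the collagen gene col-144 (-4.42) followed. Neurons carried lin-39 too, at 290.5 CPM over all of them, and the other 4 genes at 1.99 CPM or less. Without the P-lineage cell types on the Epidermis side nlp-29, nlp-31 and Y48G8AL.12 were called lower too, and lin-39 and col-144 had no value. All 5 were lower in all 11 libraries, apart from Y48G8AL.12, which was lower in 10 and had no UMI in any cell of flp-7 replicate 1.

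**Figure D5:**
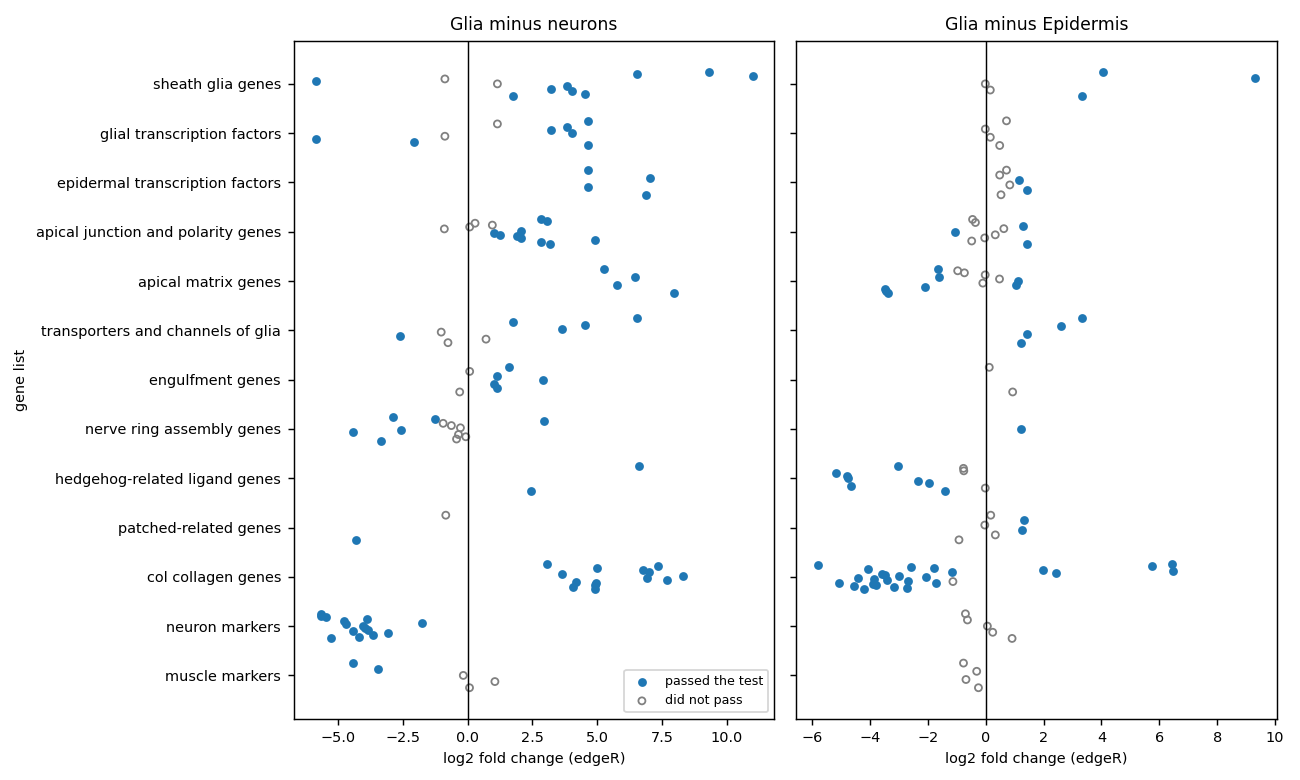
Log2 fold change from edgeR for each tested member of 13 gene lists, glia minus neurons (left) and glia minus Epidermis (right). Filled points passed the test and open points did not. The 14 collagens tested against neurons lie at 3.06 or above, and those tested against Epidermis split to both sides of 0 against Epidermis, and neuron markers lie at -1.77 or below against neurons and near 0 against Epidermis.

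Glia of the 2 P-lineage libraries at 21 to 24 h, 92 cells with 42735 UMIs, were compared with the glia of the other 9 libraries, 1885 cells. Age, strain, stage and sort differ together here and cannot be told apart. Of 1621 genes tested with edgeR 1 was higher (0.0617%) and 1 lower (0.0617%), while 178 had an unadjusted p under 0.05. Simulated data of this size were called at an adjusted p under 0.05 with no fold threshold. In them none of the changed genes was recovered and 100% of the calls were false. C54D10.10 had 16 UMIs in the P-lineage glia and 1 in the others (edgeR adjusted p 0.0136), but 13 of the 16 lay in 1 cell and the rest in 2. T28F4.1 had no UMI in either P-lineage library and 371 in the other 9, where it stood at 93.8, 175 and 234 CPM. Against the floor of 3 UMIs over the 2 libraries, 70.2 CPM, it was at least 2.49-fold lower (edgeR adjusted p 0.0462). Other cells of those 2 libraries did carry T28F4.1, with 2913 and 7572 UMIs. The T28F4.1 call was lost when any 1 of the 11 libraries was left out (edgeR adjusted p 0.0857 to 0.292). The C54D10.10 call was lost without the unc-86, eat-4, unc-4 with ceh-2 and acr-2, or first P-lineage library (edgeR adjusted p 0.0595 to 0.291) and had no value without the second, and the ceh-34 library held no UMI of it in any cell. With glial types matched, 6 AMsh cells per library and 51 genes could be tested, of which edgeR called 0 and 2 had an unadjusted p under 0.05.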

How the data were processed

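Expression was measured by droplet sequencing (10x Genomics) in sorted cells of 16 libraries. The authors deposited raw UMI counts, whole numbers for each cell, and a cell annotation that gives experiment, tissue and type. Cell Ranger 6.0.0 is named in the submitters' processing notes. Not given in the sources used here are the genome build, how cells and genes were filtered, whether free RNA was corrected for and how types were named. No coordinates are printed, and no doublet caller was run. Cells were matched to libraries by experiment name. The 11 to 14 h P-lineage library was the only name left and is the least certain match.

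Counts were summed per library and side, or per type, and given as CPM of the summed UMIs. Libraries with at least 20 glial cells (11 of 16, with 5598 to 1003043 glial UMIs) entered edgeR 4.0.16 (limma 3.58.1, R 4.3.3: TMM, filterByExpr, quasi-likelihood test, library as block, adjusted p under 0.05 and a log2 fold change of 1 or more either way). Each SE was derived from the fold change and its F statistic. Glia and comparison cells of a library were sorted together, so the library pairs them by construction; the correlation of their deviations was 0.0351 to 0.345 for neurons and 0.104 to 0.614 for Epidermis. Intervals (95%) are exact Poisson for sums and Clopper-Pearson for shares. DESeq2 1.42.0, other filters, cell minimums, type weights, blocks and left-out libraries were the alternatives. Python 3.11.15, pandas 2.3.3, numpy 2.4.6 and scipy 1.17.1 were used, with matplotlib 3.10.9 for figures.

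Named genes were, per comparison with neurons or Epidermis, the 10 with the smallest p higher in glia and the 5 lower, up to 5 per direction for the P-lineage comparison, the 5 with the largest ratio to the next glial type (20 UMIs or more there, pseudocount of 1 CPM), and members of gene lists. Members, lists and tests were chosen with earlier results of these data known. On simulated counts with 200 changed genes the test recovered 44.5% of those set for the neuron comparison (71.3% of 4-fold changes, 5862 genes), 58% for Epidermis (79.1% of 4-fold changes, 1920 genes) and 0% for the P-lineage comparison (1621 genes). Of the calls made on those counts 10.1%, 4.13% and 100% were false. A call on simulated counts needed an adjusted p under 0.05 only, without the fold threshold used for the data.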

Additional observations from a re-analysis of the deposited data

How the results depend on the processing

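Against neurons, genes higher and lower in glia numbered 773 and 1570. Without a filter on low counts they numbered 1885 and 4785, and with glial types weighted equally 141 and 453. Libraries with at least 10 cells gave 382 higher, and cells of at least 500 UMIs gave 1203 higher. With DESeq2's size factors the counts were 649 and 1895 and the median log2 fold change -0.52, and with its Wald test 675 and 1831. At least 10 cells per side moved the share of calls that were higher from 33.0% to 22.2%. Leaving out 1 library at a time gave 584 to 845 higher and 1506 to 1699 lower. Against Epidermis, with 206 and 299 calls, no filter gave 1128 and 1532, equal weights 95 and 95, and at least 50 cells per side 318 higher. Leaving out 1 library gave 182 to 278 higher and 222 to 340 lower. Without the replicate block for library the counts were 743 and 1515 against neurons and 175 and 246 against Epidermis, and 3 and 16 named or listed genes lost their call. Without GLR cells, an alternative chosen after seeing the data, 849 and 1727 genes were called against neurons and 233 and 285 against Epidermis. Without Glia_unannotated, also chosen then, they were 802 and 1589, and 254 and 319. For the P-lineage comparison (1 higher, 1 lower), DESeq2's Wald test called 14 and 5 and its size factors 2 higher. There was no lower call without the filter, 0 in both directions with at least 50 or 10 cells or with matched types, and leaving out 1 library gave 0 to 1 higher and 0 lower. The median share of glia per library was 3.51% of non-neuronal cells and 0.223% among cells of at least 500 UMIs. No named or listed gene that an alternative gave a value for changed its direction. Of 117 such genes against neurons 33 had a value with equal type weights and 81 with at least 10 cells, and of 108 against Epidermis 46 and 75. With equal weights 38 of those 46 kept their side of the threshold, 4 lost their call and 4 gained one. The 45 leading genes by type kept the highest level in their type with the 500 UMI minimum and with equal weights for libraries. They had been chosen for their ratio in these same cells, and PHso had 1 library with at least 10 cells. This outcome was therefore close to fixed in advance and is no support for those genes. The cause of each shift was not tested, apart from the number of genes or libraries that an alternative itself removes.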
